A study of Homo sapiens with 6 samples.

Results

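Transcription in T47D cells was compared between 5 h of INY-05-040, a compound that leads to degradation of the AKT kinases and is called Degrader here, and 5 h of the solvent DMSO alone. The comparison takes 4 of the 6 libraries of the series, chosen by their labels: Degrader at 100 nM, replicates 1 and 2, and DMSO, replicates 1 and 2. It covers all 20333 gene intervals of the count table, of which 19902 had enough counts to be tested. T47D is an established luminal breast cancer cell line with the estrogen receptor and without HER2 amplification, used here without genetic change and in medium with its growth factors, so the values describe 1 line. The other 2 libraries come from cells given 500 nM GDC0068 for 5 h, a compound that blocks the catalytic activity of AKT. The study picked both doses so that signaling downstream of AKT was suppressed to a similar degree. The study describes 2 independent experiments, which the replicate numbers are taken to mark, and libraries were paired by number.

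AKT kinases carry the signal of phosphatidylinositol 3-kinase (PI3K), which is switched on by growth factor receptors. They hold the FOXO transcription factors outside the nucleus, and they release the kinase complex mTORC1 from inhibition by TSC1 and TSC2. FOXO factors drive genes of growth arrest, receptor signaling and autophagy, while mTORC1 promotes the making of ribosomes, nucleotides and proteins. The assay was PRO-seq, a nuclear run-on method, which opens the cell membrane, lets polymerases already at work add labelled nucleotides, and reads the RNA they made. Its counts therefore follow transcription and not the store of mature RNA.

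The libraries held between 25371819 and 32192576 counts. Levels are given in CPM, the counts of a gene scaled to a common library total, which are not scaled by length and are compared only within a gene. A gene is called when its edgeR adjusted p is under 0.05 in a fit of all 6 libraries with the arm and the replicate number as terms, and a log2 fold change is positive where Degrader is above DMSO. By this rule 6114 genes (30.7%) were called, 2996 higher (15.1%) and 3118 lower (15.7%). These percentages are the background for every list below. Most changes were small: 247 genes were called higher and 197 lower by 1.5-fold or more, and 65 differed by 2-fold or more. Both Degrader libraries lay on the same side of both DMSO libraries in 96.0% of the called genes and in 58.6% of all genes tested. Without the replicate number in the fit, 3039 genes were called (15.3%), 1470 higher (7.39%) and 1569 lower (7.88%). DESeq2 called 2907 (14.6%), 7.15% higher and 7.46% lower. Leaving out DMSO 1, DMSO 2, Degrader 1 or Degrader 2 gave 3701, 3886, 3841 and 4033 calls. The gene lists below share this dependence: 74 of their 110 counts of members called higher or lower moved by more than 1.5 times without the replicate number, a fit called without the block from here on. All 12 luminal markers were tested, with a summed level of 5966 to 6375 CPM per library. Of 8 basal, 8 fibroblast and 7 leukocyte markers, 3, 1 and 2 were tested, with summed levels of 93.3 to 107, 1.28 to 2.68 and 55.5 to 84.0 CPM. Spike-in counts were not used, so each change is relative to the typical gene, whose median log2 fold change was -0.0012.

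**Figure D1:**
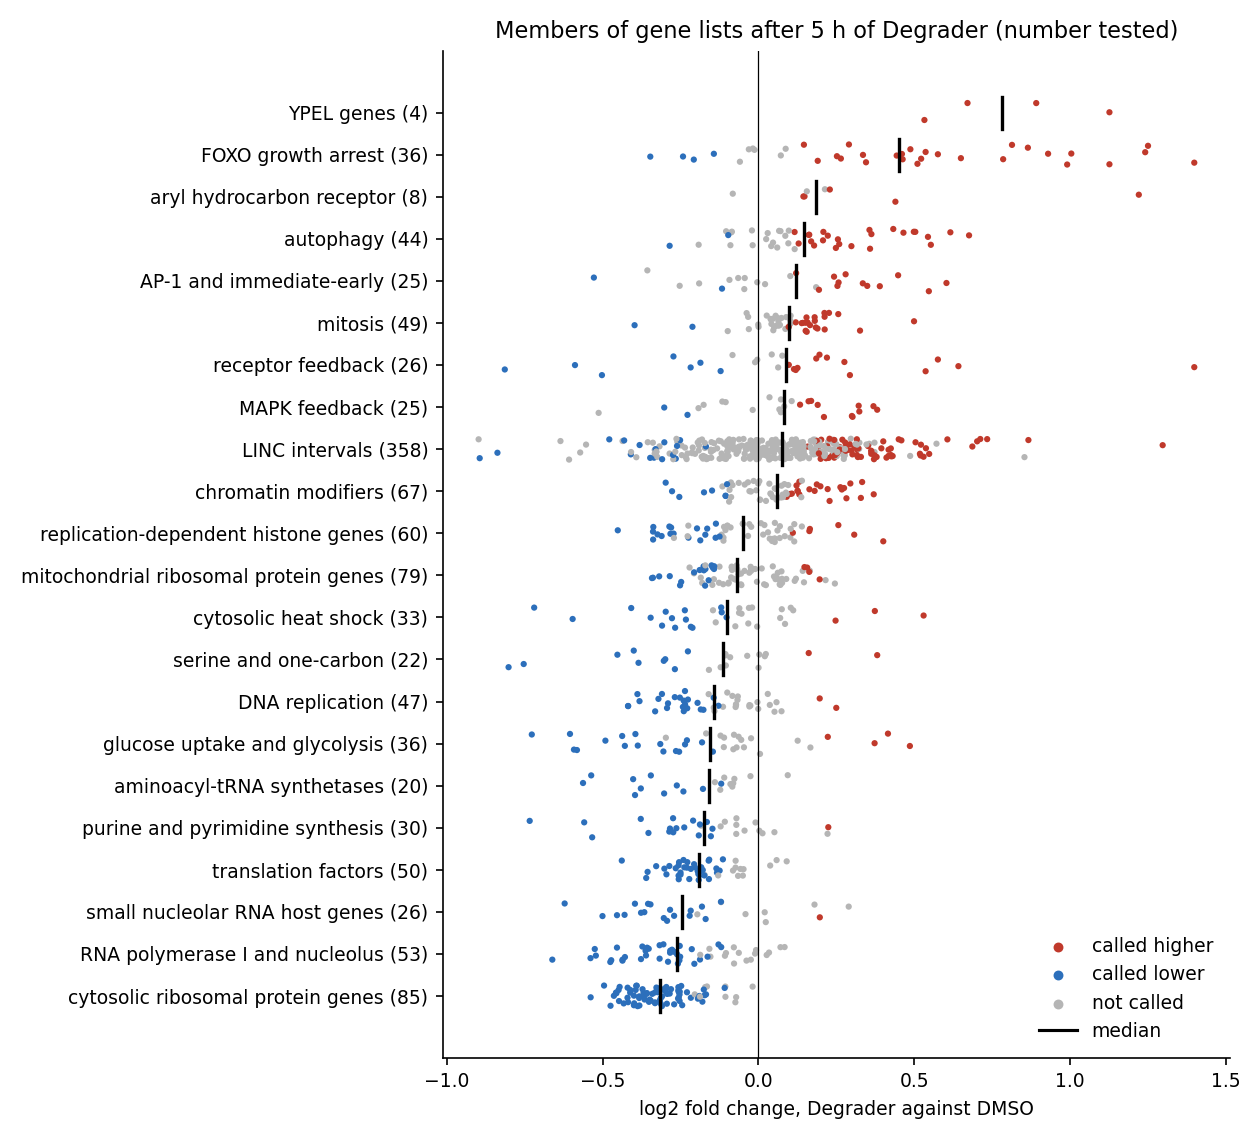
Log2 fold change of Degrader against DMSO (x axis) for the tested members of 22 gene lists and families (rows, number tested in brackets). Each point is 1 gene, coloured by whether it was called higher, lower or not at all, and black bars are medians. Cytosolic ribosomal protein genes lie wholly below 0 and have a median of -0.32, while the list of FOXO and growth arrest genes has a median of 0.45. The lists were chosen with earlier results of these data known.

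Genes that FOXO factors are known to drive, with other genes of growth arrest, moved mainly to the higher side. Of 36 such genes tested, 26 rose and 4 fell, with a median log2 fold change of 0.45 against -0.0012 for all genes. The list was chosen with earlier results of these data known, and members such as IRS2, HBP1 and YPEL3 are among the 12 highest genes. Its counts and median, here and in the comparison with GDC0068, may therefore partly reflect that choice and are descriptions only. KLHL24, an adaptor of cullin-3 ubiquitin ligases, was at 50.0 and 51.0 CPM in the DMSO libraries and at 97.8 and 105 CPM in the Degrader libraries. CCNG2, a cyclin linked to cell cycle arrest, was at 28.0 and 39.3 CPM under DMSO and at 57.1 and 76.4 CPM under Degrader. Neither gene's groups overlapped, and the log2 fold changes were 1.00 ± 0.05 (SE; edgeR adjusted p = 8.1e-15) and 0.99 ± 0.05 (adjusted p = 2.2e-13). The rise reached the FOXO genes themselves, with log2 fold changes of 0.26 ± 0.06 for FOXO1 and 0.25 ± 0.04 for FOXO3. CDKN1B, which encodes the cyclin-dependent kinase inhibitor p27, rose by 0.49 ± 0.07, and BCL6, a repressor of transcription, by 0.65 ± 0.04. FBXO32, the ubiquitin ligase atrogin-1 and a classical FOXO target in muscle, rose by 0.52 ± 0.04. The 4 members of this list that fell were GADD45A, GADD45G, CDKN1A and FOXO6, of which the GADD45 genes encode stress sensors and CDKN1A encodes p21. Their log2 fold changes were -0.35, -0.21, -0.14 and -0.24, and they were named after their values were seen. Without the replicate number in the fit, 24 members were called higher and 1 lower.

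All 4 tested genes of the YPEL family, small zinc-binding proteins related to Drosophila Yippee, rose. YPEL3 stood at 12.2 and 15.1 CPM under DMSO and at 28.6 and 30.7 CPM under Degrader, or 1.13 ± 0.09 as a log2 fold change (edgeR adjusted p = 3.0e-10). Each Degrader library was more than 2-fold above the DMSO library of its experiment. YPEL2, YPEL1 and YPEL5 followed with log2 fold changes of 0.89 ± 0.08, 0.67 ± 0.08 and 0.53 ± 0.09. BTG1 and BTG2, anti-proliferative genes, rose by 0.44 ± 0.04 and 0.35 ± 0.08.

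Promoters of the genes called higher held a forkhead motif more often than those of other genes. A RefSeq promoter (GRCh38.p14) of the same name, chromosome and strand was found for 11121 genes, and its start lay within 100 bases of the deposited start site for 8667. In the 250 bases before the start, the forkhead motif GTAAACA, on either strand, was present in 1.70% of these promoters. The share was 3.96% (56 of 1413) for genes called higher, 0.941% (17 of 1807) for genes called lower and 1.36% for genes not called. Among genes called higher by 1.5-fold or more it was 13.5% (7 of 52). Read the other way, 56 of the 147 genes with the motif were called higher (38.1%) and 17 lower (11.6%), with a median log2 fold change of 0.10, whereas the 8520 genes without it gave 15.9% higher and 21.0% lower. These shares are descriptions without a test, and a match does not show binding.

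The promoters of 4 genes called higher are printed to show where the motif lies. HBP1, a repressor of cell cycle genes, was the gene with the motif and the highest fold change. DEPP1 is a known FOXO target, PTCH1 holds 2 copies, and PIK3CA encodes the catalytic PI3K subunit that lies upstream of AKT. Each sequence is the stretch of 250 bases before the start, 5′ to 3′ on the strand of the gene, with the motif or its reverse complement in capitals.
HBP1, chr7:107168753-107169002, plus strand: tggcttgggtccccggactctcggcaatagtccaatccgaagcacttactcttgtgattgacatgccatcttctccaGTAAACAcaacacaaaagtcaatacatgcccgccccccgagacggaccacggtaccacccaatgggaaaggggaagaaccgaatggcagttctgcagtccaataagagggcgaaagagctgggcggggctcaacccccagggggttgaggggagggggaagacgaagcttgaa
DEPP1, chr10:44978810-44979059, minus strand: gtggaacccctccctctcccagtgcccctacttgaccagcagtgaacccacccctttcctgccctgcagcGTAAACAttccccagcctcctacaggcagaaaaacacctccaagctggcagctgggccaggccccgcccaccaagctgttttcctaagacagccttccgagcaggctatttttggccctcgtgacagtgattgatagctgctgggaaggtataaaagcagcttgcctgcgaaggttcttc
PTCH1, chr9:95507428-95507677, minus strand: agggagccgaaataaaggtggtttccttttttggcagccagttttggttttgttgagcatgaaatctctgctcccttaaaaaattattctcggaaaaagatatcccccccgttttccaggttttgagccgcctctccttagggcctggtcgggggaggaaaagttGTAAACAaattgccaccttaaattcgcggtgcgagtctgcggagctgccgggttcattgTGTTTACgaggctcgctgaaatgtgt
PIK3CA, chr3:179148107-179148356, plus strand: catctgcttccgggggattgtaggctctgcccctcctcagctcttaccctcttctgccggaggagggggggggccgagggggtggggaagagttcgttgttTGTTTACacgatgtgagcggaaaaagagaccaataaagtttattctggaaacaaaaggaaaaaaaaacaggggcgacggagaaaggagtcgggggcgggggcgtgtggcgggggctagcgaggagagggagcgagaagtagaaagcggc
The motif starts 173 bases before the start in HBP1, 180 in DEPP1 and 149 in PIK3CA, and 85 and 26 bases before it in PTCH1. DEPP1 was at 5.42 and 5.22 CPM under DMSO and at 8.25 and 9.85 CPM under Degrader, which gives a log2 difference of 0.76 ± 0.13 (edgeR adjusted p = 3.7e-05). PTCH1, the Hedgehog receptor, which was named for its sequence, rose by 0.60 ± 0.09 (adjusted p = 7.6e-06). HBP1 rose by 1.24 ± 0.07. The promoters of IRS2, KLHL24, YPEL3, CCNG2 and CDKN1B did not hold these letters in the same window.

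Other motifs differed too. The AP-1 motif TGANTCA was in 3.47% of promoters of genes called higher, 2.10% of those called lower and 2.85% of all. The GC box GGGGCGGGG ran the other way, with 27.3%, 41.0% and 31.6%. Base composition moved with the call as well, since the median GC content of the 250 bases was 64.4% for genes called higher and 70.4% for genes called lower. The part of composition in the motif shares was not tested. The E-box CACGTG, the site of MYC and related factors, was in 10.7%, 9.96% and 9.32%, and the TATA-like motif TATAAA in 5.94%, 4.59% and 4.52%. Among the 52 promoters of genes called higher by 1.5-fold or more the TATA-like motif was in 19.2% and the AP-1 motif in 9.62%. All motifs were searched on both strands, and none was allowed a mismatch.

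**Figure D2:**
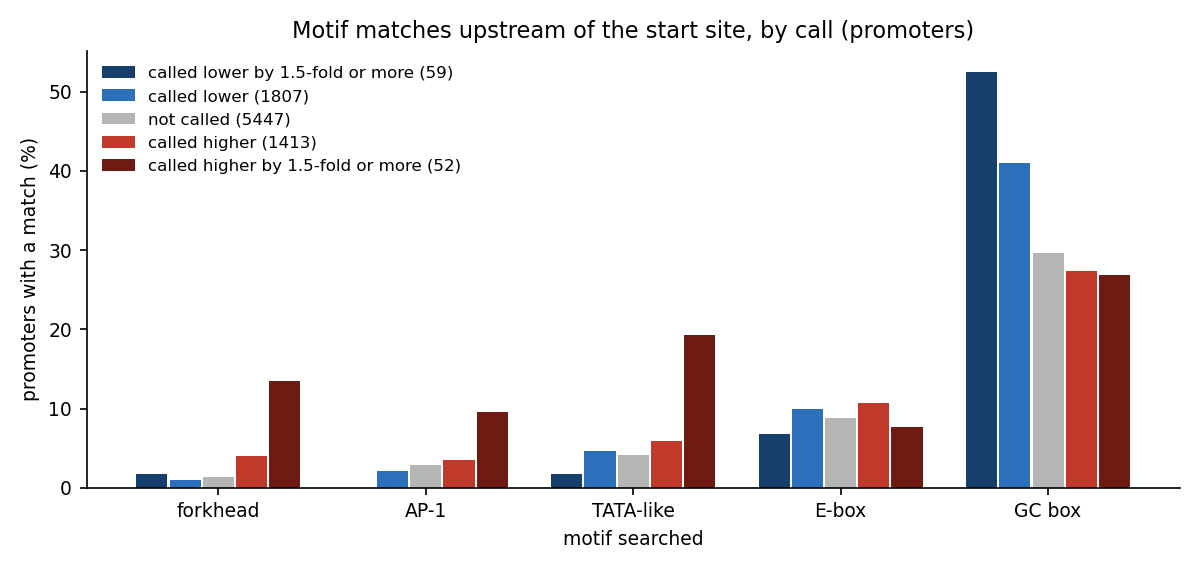
Share of promoters with a match in the 250 bases before the start (y axis, percent) for 5 motifs (x axis), by the call of the gene for Degrader against DMSO (bar colours, number of promoters in brackets). The forkhead share runs from 0.941% of genes called lower to 13.5% of genes called higher by 1.5-fold or more, and the GC box share is highest among genes called lower by 1.5-fold or more, at 52.5%.

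Genes of growth factor receptors and their adaptors moved in both directions. Of 26 tested, 13 rose and 7 fell. ERBB3, the HER3 receptor, was at 146 and 156 CPM under DMSO and at 215 and 234 CPM under Degrader, and the log2 fold change was 0.58 ± 0.04 (edgeR adjusted p = 3.2e-12). INSR, the insulin receptor, rose by 0.54 ± 0.04 and IGF1R, its close relative, by 0.20 ± 0.04, while GRB7, an adaptor that binds HER2, rose by 0.64 ± 0.06. The fibroblast growth factor receptors went the other way, apart from FGFR2: log2 fold changes were -0.59 ± 0.08 for FGFR4, -0.50 ± 0.06 for FGFR3 and -0.22 ± 0.05 for FGFR1, and 0.10 ± 0.04 for FGFR2. RET, the receptor of GDNF family ligands, fell too, with -0.81 ± 0.10. IRS2, an adaptor of the insulin and IGF1 receptors, had the highest log2 fold change among the genes that met the naming rule, 1.40 ± 0.09, while its relative IRS1 was not called, at 0.08 ± 0.04 (adjusted p = 0.12).

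Within the PI3K and AKT pathway itself, 7 of 22 genes rose and 5 fell, and the members called higher include activators and inhibitors. PIK3CA was at 89.6 and 87.0 CPM under DMSO and at 123 and 129 CPM under Degrader, or 0.51 ± 0.04 as a log2 fold change (edgeR adjusted p = 8.2e-11). PIK3IP1, an inhibitor of PI3K, rose by 0.77 ± 0.10, SGK3, a kinase related to AKT, by 0.31 ± 0.04 and INPP4B, a lipid phosphatase, by 0.30 ± 0.05. PHLPP2, a phosphatase of AKT, had a log2 fold change of -0.30 ± 0.04. AKT1, whose protein the compound targets, had a log2 fold change of -0.30 ± 0.03 in transcription, and AKT2 one of 0.11 ± 0.04. Since the compound acts on the protein, these values do not check the labels. Of 30 genes of mTOR complexes and their regulators, 8 rose and 3 fell. DEPTOR, an inhibitor of mTOR, rose from 74.2 and 69.4 CPM to 113 and 113 CPM, which gives a log2 difference of 0.65 ± 0.04. CASTOR2, related to an arginine sensor, RICTOR, the defining subunit of mTORC2, and TSC1 rose by 0.53 ± 0.04, 0.45 ± 0.04 and 0.31 ± 0.04. MTOR itself and EIF4EBP1, a repressor of translation that mTORC1 inactivates, fell, with log2 fold changes of -0.13 ± 0.04 and -0.35 ± 0.05.

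**Figure D3:**
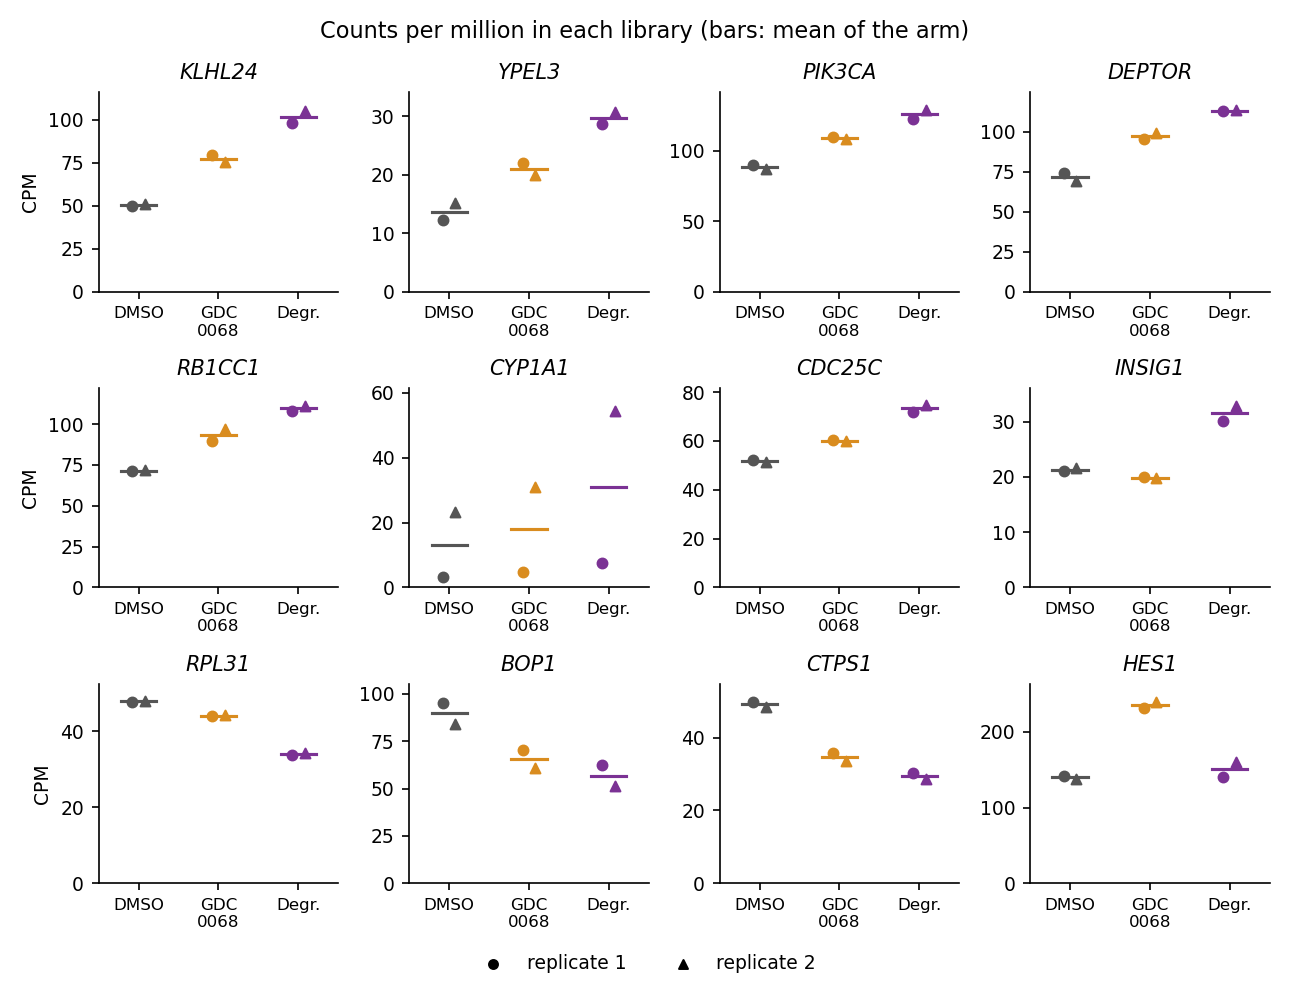
Levels in CPM (y axis, starting at 0) of 12 genes in each of the 6 libraries, by arm (x axis). Circles are replicate 1, triangles replicate 2 and bars the mean of the arm. KLHL24 rises from 50.0 and 51.0 CPM to 97.8 and 105 CPM under Degrader, while RPL31 falls from 47.8 and 47.9 CPM to 33.7 and 34.2 CPM.

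Genes of autophagy, the pathway that encloses cell contents in membranes and delivers them to lysosomes, mostly rose. Of 44 tested, 24 rose, 2 fell and the rest were not called, with a median log2 fold change of 0.15. The members called higher span the steps of the pathway. Among initiation genes, RB1CC1, a subunit of the ULK1 complex, was at 71.2 and 71.9 CPM under DMSO and at 108 and 111 CPM under Degrader, and the log2 fold change was 0.62 ± 0.04 (edgeR adjusted p = 5.0e-12). ULK1 rose by 0.30 ± 0.03, PIK3C3, the lipid kinase of the pathway, by 0.43 ± 0.05 and WIPI2, which binds its product, by 0.54 ± 0.04. Of the membrane-bound modifiers, GABARAPL1 rose by 0.68 ± 0.13 and MAP1LC3B by 0.50 ± 0.07. The cargo receptors NBR1 and OPTN rose by 0.55 ± 0.04 and 0.50 ± 0.06. TFEB, a transcription factor of lysosomal genes, and WDR45B were the 2 members that fell, with log2 fold changes of -0.28 ± 0.08 and -0.10 ± 0.04. Without the replicate number in the fit, 15 members were called higher and 0 lower. Of the lysosomal genes, 16 of 56 rose and 7 fell.

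Genes that build ribosomes fell together. Of 85 genes for proteins of the cytosolic ribosome, 76 fell and 0 rose, and all 85 log2 fold changes were below 0, from -0.54 to -0.02 with a median of -0.32. The medians within the 2 experiments were -0.30 and -0.35. RPS2, of the small subunit, was at 122 and 114 CPM under DMSO and at 82.2 and 80.1 CPM under Degrader, or -0.54 ± 0.04 as a log2 fold change (edgeR adjusted p = 9.3e-11). RPL31, of the large subunit, was at 47.8 and 47.9 CPM under DMSO and at 33.7 and 34.2 CPM under Degrader, which gives a log2 difference of -0.50 ± 0.06 (adjusted p = 8.2e-08). In both genes the Degrader libraries lay below both DMSO libraries. Without the replicate number 66 members were called lower, and among the 55 members whose interval overlaps no other and is at least 1000 bp long, 48 were. These genes are short, with a median interval of 4075 bp and a median level of 58.1 CPM. Of all genes of 3 to 10 kb with 20 to 100 CPM, 26.8% were called lower. Ribosomal protein genes have many processed copies in the genome, so their counts may be shared with those. Of the mitochondrial ribosomal protein genes, 17 of 79 were lower and 4 were higher, with a median of -0.07; whether they differ from the cytosolic ones was not tested.

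RNA polymerase I, which transcribes ribosomal RNA, and the factors that process that RNA in the nucleolus also fell: 37 of 53 genes were called lower and 0 higher, and their log2 fold changes had a median of -0.26. BOP1, a large-subunit assembly factor, was at 95.4 and 84.1 CPM under DMSO and at 62.2 and 51.4 CPM under Degrader, and the log2 fold change was -0.66 ± 0.04 (edgeR adjusted p = 6.8e-12). DDX21, an RNA helicase of the nucleolus, NOP56, of the snoRNA-guided methylation complex, and POLR1B, of the polymerase core, had log2 fold changes of -0.53 ± 0.04, -0.44 ± 0.04 and -0.32 ± 0.06. The host genes of small nucleolar RNAs, which guide the modification of ribosomal RNA, followed: 18 of 26 fell and 1 rose, with a median of -0.25. SNHG29 and SNHG17 had the lowest values, -0.62 ± 0.06 and -0.50 ± 0.04, and GAS5 was at -0.35 ± 0.04. Intervals of the small nucleolar RNAs themselves were lower in 40 of 167 and higher in 0, but they lie inside other genes and can share their reads. In the fit that leaves out the replicate number, the lower counts were 28, 15 and 18.

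Translation factors fell in the same direction. Of 50 tested, 38 fell and 0 rose, with a median log2 fold change of -0.19; 26 were called lower without the replicate number. EEF1A2, a tissue-restricted elongation factor that stands outside this list, among the 12 genes with the lowest log2 fold change by the naming rule, was at 81.1 and 79.4 CPM under DMSO and at 41.9 and 47.1 CPM under Degrader, or -0.85 ± 0.05 as a log2 fold change (edgeR adjusted p = 6.3e-13). EIF4A1, the RNA helicase of initiation, EEF1D, an exchange factor of elongation, and EEF2, which moves the ribosome along, had log2 fold changes of -0.36 ± 0.04, -0.44 ± 0.04 and -0.25 ± 0.03. Of 20 cytosolic aminoacyl-tRNA synthetases, which load tRNAs with amino acids, 11 fell and 0 rose, led by VARS1 and MARS1 at -0.56 ± 0.05 and -0.54 ± 0.04. Of the 17 mitochondrial synthetases, 4 fell and 0 rose, with a median of -0.03 against -0.16 for the cytosolic ones. Whether the cytosolic and mitochondrial groups differ was not tested.

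Metabolic genes that supply growth were lower in several pathways. Of 30 genes of purine and pyrimidine synthesis, 17 fell and 1 rose, with a median of -0.17. CTPS1, which makes CTP, was at 49.8 and 48.5 CPM under DMSO and at 30.4 and 28.7 CPM under Degrader, which gives a log2 difference of -0.73 ± 0.06 (edgeR adjusted p = 2.1e-10). CAD and GART, multifunctional enzymes at the start of pyrimidine and within purine synthesis, were at -0.24 ± 0.04 and -0.21 ± 0.05. In serine and one-carbon metabolism 9 of 22 genes fell and 2 rose. MTHFD1L, a mitochondrial folate enzyme, was at -0.80 ± 0.06 and PSAT1, of serine synthesis, at -0.75 ± 0.10. MTHFD2, another mitochondrial folate enzyme, was called higher, at 0.16 ± 0.03. Of 36 genes of glucose uptake and glycolysis, 17 fell and 4 rose, with a median of -0.16. HK2, which traps glucose in the cell, and LDHA, which makes lactate, were at -0.73 ± 0.08 and -0.58 ± 0.04, while PFKFB3, which makes an activator of glycolysis, rose by 0.37 ± 0.04. VEGFA, the endothelial growth factor of the hypoxia list, was at -0.75 ± 0.05, but that list as a whole had 6 members higher and 4 lower of 20.

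Chaperones of the heat shock list, which includes the mitochondrial HSPD1, fell in 15 of 33 genes and rose in 3. HSPA8, the constitutive HSP70, was at -0.72 ± 0.04 on the log2 scale (edgeR adjusted p = 1.7e-13) and HSPH1, its exchange factor, at -0.60 ± 0.09. The stress-inducible HSPA1A, whose counts may be shared with a near-identical neighbour, rose by 0.25 ± 0.06. Targets and regulators of ATF4, a factor of the amino acid response that also drives several serine pathway genes, were split, with 7 of 22 higher and 9 lower. CBS, which channels homocysteine to cysteine and stands in this list, was at -0.84 ± 0.09. CHAC1 and ASNS, of which the former degrades glutathione and the latter makes asparagine, were lower at -0.75 ± 0.16 and -0.33 ± 0.10. Amino acid transporters were split as well, with 5 of 24 higher and 6 lower. SLC38A2, a carrier of small neutral amino acids, rose by 0.58 ± 0.04 and SLC7A1, a carrier of arginine and lysine, was at -0.43 ± 0.05. Of all 226 solute carrier genes, 64 fell and 31 rose. Genes of the respiratory chain were called lower in 12 of 79 and higher in 5, and those of the proteasome in 11 and 1 of 46.

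Lipid genes were divided by pathway. Of 29 genes of sterol synthesis and uptake, 9 rose and 1 fell. INSIG1, which holds the sterol sensor machinery in the endoplasmic reticulum, was at 21.0 and 21.5 CPM under DMSO and at 30.2 and 32.8 CPM under Degrader, and the log2 fold change was 0.57 ± 0.08 (edgeR adjusted p = 1.5e-06). Of 21 genes of fatty acid synthesis, 3 rose and 7 fell. FASN, the fatty acid synthase, and ACACA, which makes its substrate, were at -0.28 ± 0.04 and -0.33 ± 0.04. ABCA1, the cholesterol exporter and a target of liver X receptors, rose by 0.40 ± 0.10. The coactivators of mitochondrial genes PPARGC1A and PPARGC1B went in opposite directions, at 0.39 ± 0.09 and -0.72 ± 0.05. In polyamine metabolism the synthetic enzymes SRM and ODC1 fell and the catabolic enzyme SAT1 rose, with -0.45 ± 0.08, -0.33 ± 0.11 and 0.51 ± 0.06.

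Several other groups had counts near or below the background. These were NF-kappaB and cytokine genes, with 4 of 24 higher and 4 lower, interferon response genes, with 7 of 44 and 6, clock genes, with 5 of 23 and 4, and genes of pause release, the step that lets polymerase leave the promoter, with 5 of 36 and 2. Genes of the endoplasmic reticulum stress response were split, with 7 of 27 higher and 7 lower, and SDF2L1, one of its chaperone partners, was at -0.44 ± 0.11. Kruppel-like factors stood outside these groups, with 4 of 14 higher and 1 lower, and KLF6 rose by 0.46 ± 0.04. The fit without the block also called 4 of them higher. In other lists single members still moved. STAT2, a signal carrier of interferon receptors, rose by 0.37 ± 0.05. ARRDC3, an arrestin-domain protein that lowers receptor and glucose transporter levels, rose by 0.39 ± 0.04. TXNIP, its relative and a sensor of glucose, was not called, at -0.02 ± 0.06 (edgeR adjusted p = 0.86). CRY1 and PER2, repressors of the clock, were at -0.38 ± 0.06 and -0.21 ± 0.04, and DBP, a clock output, at 0.30 ± 0.07. Of repair genes, XRCC3, of homologous recombination, and XRCC4, of end joining, were at -0.44 ± 0.04 and 0.31 ± 0.04.

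Cell cycle genes were lower for DNA replication and higher for mitosis. Of 47 replication genes, 24 fell and 2 rose, with a median log2 fold change of -0.14. The helicase subunit MCM5, its loader CDT1 and the sliding clamp PCNA were at -0.42 ± 0.06, -0.42 ± 0.05 and -0.24 ± 0.07, whereas ORC3 and ORC4, of the origin recognition complex, rose by 0.25 ± 0.05 and 0.20 ± 0.05. Of 39 genes of MYC and the G1 phase, 8 rose and 15 fell. CCNE1, the cyclin that drives entry into S phase, and E2F1, a driver of replication genes, were at -0.49 ± 0.10 and -0.43 ± 0.05, and RBL2, a repressor of E2F targets, rose by 0.34 ± 0.05. Of 49 mitotic genes, 21 rose and 2 fell, with a median of 0.10. CDC25C, the phosphatase that triggers mitosis, was at 52.2 and 51.5 CPM under DMSO and at 72.0 and 74.6 CPM under Degrader, or 0.50 ± 0.05 as a log2 fold change (edgeR adjusted p = 2.8e-09). NDC80, of the kinetochore, TOP2A, the topoisomerase of chromosome condensation, and MKI67, the Ki-67 antigen, rose by 0.33 ± 0.05, 0.19 ± 0.03 and 0.17 ± 0.04. Most mitotic changes were small, and without the replicate number 9 were called higher and 1 lower. Leaving out either DMSO 1 or Degrader 1 also left 9 called higher. The lower pair consisted of MYBL2 and CDC20, at -0.40 ± 0.04 and -0.21 ± 0.06. Of 60 replication-dependent histone genes, which have near-identical copies, 18 fell and 6 rose. Their median was -0.16 between the libraries of replicate 1 and 0.05 between those of replicate 2, so the replicates disagreed in direction. Without the block 8 were called lower and 2 higher, and of 16 with isolated intervals 4 were lower and 5 higher.

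Immediate-early genes, which respond to growth factors and stress within minutes, rose in 12 of 25 and fell in 2. FOS, a subunit of AP-1, was at 11.5 and 12.7 CPM under DMSO and at 17.5 and 19.1 CPM under Degrader, which gives a log2 difference of 0.60 ± 0.09 (edgeR adjusted p = 1.4e-05). JUND, a partner of FOS, ATF3, a stress-induced partner, and CCN1, a secreted matrix protein, rose by 0.34 ± 0.06, 0.28 ± 0.04 and 0.39 ± 0.05. Feedback inhibitors of RAS and MAP kinase signaling rose in 11 of 25 and fell in 2. SPRED2, LRIG1 and LRIG3, which restrain RAS or receptors, rose by 0.32 ± 0.03, 0.30 ± 0.04 and 0.37 ± 0.04, and DUSP6, a phosphatase of ERK, by 0.38 ± 0.08. In the JNK cascade 10 of 31 genes rose and 5 fell, with 0.26 ± 0.04 for MAPK8, which encodes JNK1. Targets and partners of the aryl hydrocarbon receptor, a sensor of foreign compounds, rose in 5 of 8 and fell in 0. In this list, 1 was called higher without the block and 3 by DESeq2. CYP1A1, its classical target, was at 3.24 and 23.2 CPM under DMSO and at 7.45 and 54.4 CPM under Degrader, and the log2 fold change was 1.22 ± 0.09 (adjusted p = 6.4e-11). The groups of CYP1A1 overlapped, because replicate 2 was several times above replicate 1 in every arm, and each Degrader library was above the DMSO library of its own experiment. CYP1B1 rose by 0.44 ± 0.04.

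Genes of luminal identity and estrogen response did not move one way. Of 30 estrogen receptor targets, 13 rose and 14 fell. The fit without the block called 6 higher and 3 lower, and DESeq2 called 10 and 6. These targets are abundant, with a median level of 157 CPM. Among genes of 10 to 30 kb with at least 100 CPM, ribosomal protein genes left out, 21.1% were called higher and 31.2% lower. PGR, the progesterone receptor, rose by 0.33 ± 0.04 and GREB1, a cofactor of the estrogen receptor, by 0.15 ± 0.04, while KCNK5, a potassium channel, and TFF1, a secreted trefoil protein, were at -0.63 ± 0.05 and -0.40 ± 0.14. ESR1, the estrogen receptor, was at -0.13 ± 0.04 and FOXA1, which opens chromatin for it, at 0.16 ± 0.04. Of 27 nuclear receptor genes, 10 rose and 4 fell. Wnt pathway genes fell in 10 of 33 and rose in 3, and NKD2, an inhibitor of the pathway, had the lowest log2 fold change among the genes that met the naming rule, -1.05 ± 0.15. In the Notch pathway, 5 of 25 rose and 7 fell, with the ligand JAG2 at -0.64 ± 0.05 and the receptor NOTCH1 at -0.44 ± 0.04. In the TGF-beta and BMP pathways, 10 of 35 rose and 3 fell.

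Regulators of cell death included large changes in single genes. Of 17 genes of the BCL2 family, 4 rose and 2 fell. BCL2, which protects from death, rose by 0.66 ± 0.05, and so did BMF and BBC3, which promote it, by 0.58 ± 0.10 and 0.42 ± 0.09. Of 27 targets of the tumour suppressor p53, 10 rose and 4 fell. TP53INP1, which is also linked to autophagy, rose by 0.84 ± 0.05, while AEN, a nuclease of apoptosis, and TIGAR, which lowers glycolysis, were at -0.99 ± 0.08 and -0.59 ± 0.09. TNFSF10, the death ligand TRAIL and a known FOXO target, rose by 0.81 ± 0.07. Chromatin modifiers rose in 22 of 67 and fell in 8, with small changes: KDM5A and KDM3A, histone demethylases, rose by 0.37 ± 0.04 and 0.33 ± 0.06, and HDAC2, a deacetylase, was at -0.30 ± 0.08. Splicing factors leaned lower, with 13 of 50 called lower and 5 higher. Of 38 genes of cullin ubiquitin ligases and degron receptors, 3 rose and 5 fell, both shares under the background. Single members still changed. CUL4B, a scaffold of such ligases, rose by 0.64 ± 0.07, and CRBN, a substrate receptor, by 0.20 ± 0.05.

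The direct test of Degrader against GDC0068, in the same fit, called 2065 genes (10.4%), 1001 higher under Degrader (5.03%) and 1064 lower (5.35%). The fit without the replicate number called 53 (0.266%), so these calls lean on the pairing, and leaving out GDC0068 1, Degrader 1 or Degrader 2 gave 1065, 525 and 1190. Of the cytosolic ribosomal protein genes, 58 of 85 were lower under Degrader than under GDC0068 and 0 higher, with a median difference of -0.24 on the log2 scale. RPL10A differed by -0.40 ± 0.04 (edgeR adjusted p = 2.2e-07) and RPL31 by -0.38 ± 0.06 (adjusted p = 6.8e-05). Of all genes of 3 to 10 kb with 20 to 100 CPM, 12.3% were lower under Degrader than under GDC0068, and of those of 1 to 3 kb 36.2%. The part of interval length in the difference was not tested. Without the replicate number, 9 of the ribosomal protein genes were lower under Degrader. GDC0068 against DMSO called 8.87% of all genes higher and 8.91% lower, and it had 27 of these genes lower, 3 higher and a median of -0.09.

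Mitotic genes were higher under Degrader than under GDC0068 in 22 of 49 and lower in 0, and histone genes in 28 of 60 and 0, with median differences of 0.14 and 0.17. Against DMSO, the histone genes were lower in 35 of 60 under GDC0068 and in 18 under Degrader, of which the latter count fell to 8 without the block and came with replicate medians of opposite sign. Replication genes, lower in 27 of 47 under GDC0068 and in 24 under Degrader against the same DMSO libraries, differed between the compounds in 5 genes, all higher under Degrader. Genes of FOXO and growth arrest were higher under Degrader than under GDC0068 in 17 of 36 and lower in 1. Much of their rise was shared, since GDC0068 against DMSO had 24 of the 36 higher and 0 lower, with a median of 0.28. Genes of sterol synthesis and uptake were higher under Degrader than under GDC0068 in 10 of 29 and lower in 1. Against DMSO, GDC0068 had 0 of these 29 higher and 5 lower. No gene of any of these lists but 9 ribosomal protein genes, 2 of the FOXO list and 2 of the sterol list was called between the compounds without the replicate number.

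**Figure D4:**
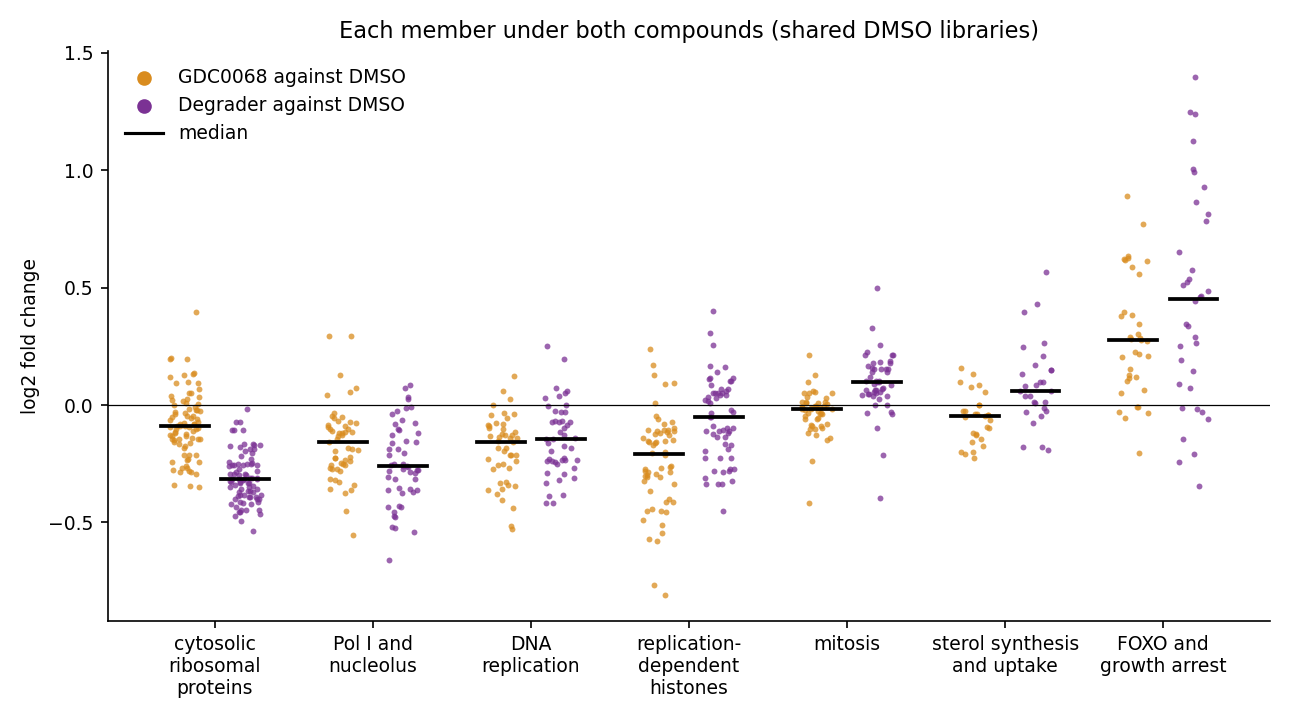
Log2 fold change against DMSO (y axis) of each tested member of 7 gene lists (x axis) under GDC0068 (orange) and Degrader (purple), with medians as black bars. Both comparisons use the same DMSO libraries. The median of the cytosolic ribosomal protein genes is -0.09 under GDC0068 and -0.32 under Degrader, and that of the histone genes is -0.21 and -0.05.

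Some single genes separated the compounds. HES1, a Notch target that represses transcription, was at 142 and 138 CPM under DMSO, 141 and 159.8 CPM under Degrader and 232 and 239 CPM under GDC0068. Both GDC0068 libraries lay above all others, the DMSO and Degrader libraries overlapped, and Degrader differed from GDC0068 by -0.65 ± 0.04 on the log2 scale (edgeR adjusted p = 7.6e-12). SCD, which introduces the double bond into fatty acids, was at 96.8 and 94.5 CPM under DMSO, 93.0 and 98.4 CPM under Degrader and 72.4 and 70.3 CPM under GDC0068, a difference of 0.42 ± 0.04 between the compounds (adjusted p = 2.2e-07). CYP1A1 rose under both compounds, with log2 fold changes of 1.22 for Degrader and 0.46 ± 0.10 for GDC0068, and differed between them by 0.76 ± 0.09 (adjusted p = 2.0e-06). BMF differed by 0.53 ± 0.10 and PER1, a gene of the circadian clock, by -0.38 ± 0.06. The calls of CYP1A1, BMF and PER1 between the compounds lean on the pairing, since none of these genes was called without the block. Some strong responses to both compounds were not called different between them. HSPA8 had a log2 fold change of -0.72 under Degrader and -0.61 ± 0.04 under GDC0068, and the difference was -0.11, with a 95% interval of -0.18 to -0.03 (adjusted p = 0.083). FASN was at -0.28 and -0.24 ± 0.04, a difference of -0.04 with an interval of -0.11 to 0.03 (adjusted p = 0.53). These intervals are normal approximations from the SE and are not adjusted for the number of genes. Translation factors differed in few members, with 5 of 50 lower under Degrader than under GDC0068 and 0 higher, and a median difference of -0.05.

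Transcripts that do not code for protein did not move as 1 group. Of 358 intervals named LINC, 68 rose and 16 fell, with a median log2 fold change of 0.08. LINC02680 was at 27.3 and 30.4 CPM under DMSO and at 49.1 and 56.1 CPM under Degrader, or 0.87 ± 0.06 as a log2 fold change (edgeR adjusted p = 6.9e-12). Under GDC0068, against the same DMSO libraries, 46 LINC intervals were higher and 4 lower, with a median of 0.07. Antisense intervals rose in 103 of 554 and fell in 47, although reads of a gene and of its antisense partner may not be separable here. Intervals named after a genomic clone rose in 475 of 4111 and fell in 292, or 11.6% and 7.10%, both under the background. In 612 pairs of an antisense, divergent, intronic or overlapping transcript and the gene it is named for, both members were called in 76, in the same direction in 57 and in opposite directions in 19. In the 244 pairs with overlapping intervals, which may share reads, 35 had both called, 29 in the same direction and 6 in opposite ones. In the 368 pairs without overlap the counts were 41, 28 and 13. MicroRNA intervals were below the background too, with 14 of 245 higher and 13 lower. Among coding genes, the zinc finger family was also below it, with 64 of 485 higher and 45 lower.

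The share of genes called higher rose with interval length over all genes tested, and among the most abundant ones only from 10 kb up. The share called higher was 4.56% for intervals under 1 kb, 10.4% for 3 to 10 kb, 21.7% for 30 to 100 kb and 40.6% for over 300 kb. The share called lower was 7.0%, 17.3%, 18.5% and 10.7%. Longer intervals collect more counts, with a median of 2.05 CPM in the shortest class and 124 CPM in the longest. Among genes with 20 to 100 CPM, the share called higher still ran from 6.54% to 46.4% and the share called lower from 21.6% to 10.3%. Among genes with at least 100 CPM, with ribosomal protein genes left out, the share called higher had no such order among shorter genes. It was 15.8% under 1 kb (38 genes), 33.3% for 1 to 3 kb (33 genes) and 30.9% for 3 to 10 kb (110 genes). From 21.1% for 10 to 30 kb it rose to 27.2% for 30 to 100 kb, 35.0% for 100 to 300 kb and 44.5% over 300 kb. The medians were small in every class, from -0.03 under 1 kb to 0.09 over 300 kb, and the latter was 0.10 and 0.08 in the 2 experiments. Under GDC0068 the class over 300 kb had a median of 0.02, and in the direct test 23.3% of it was higher under Degrader.

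**Figure D5:**
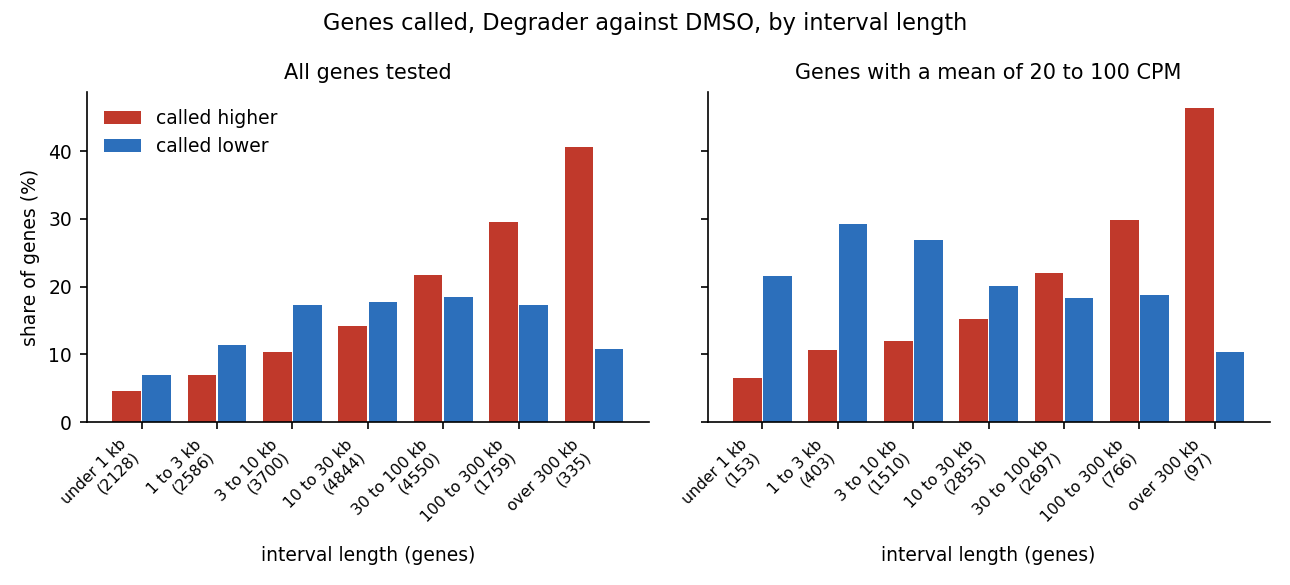
Share of genes called higher (red) or lower (blue) for Degrader against DMSO (y axis, percent) by interval length (x axis, number of genes in brackets), for all genes tested (left) and for genes with a mean of 20 to 100 CPM (right). On the left, the higher share grows from 4.56% under 1 kb to 40.6% over 300 kb.

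Among the 157 genes given with values, the intervals of 43 overlap another interval on either strand and may share its reads: ACACA, AKT1, AKT2, ARRDC3, BBC3, BCL6, BOP1, BTG1, CDKN1B, CRBN, DBP, DEPP1, EEF1D, EEF2, EIF4A1, ERBB3, FGFR1, GAS5, GREB1, HSPA8, IGF1R, LDHA, MAP1LC3B, MARS1, MTHFD1L, MTHFD2, NDC80, NOP56, PER1, PGR, PHLPP2, PIK3CA, PPARGC1B, RBL2, RPL10A, RPS2, SLC38A2, SNHG17, SNHG29, SPRED2, TOP2A, ULK1 and VEGFA.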

How the data were processed

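PRO-seq of T47D cells gave 6 libraries, 2 in each of 3 arms. Raw counts per gene interval were used as deposited by the authors in a single table, per the file headers with 1 column per library, and their whole values and unequal library totals show no normalisation. The submitters' processing notes name cutadapt 1.14, Bowtie 1.2.2, SAMtools 1.3.1, HISAT2 2.2.1 and limma, and the builds hg38, GRCh38 and dm3, without their roles. The counted part of a gene, the use of strand, the treatment of duplicate reads and of any spike-in are not given in the sources used here, and each can change the counts. Without strand, reads of overlapping genes cannot be told apart, and without a spike-in a change common to all genes is removed by scaling.

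Groups and replicate numbers come from the sample labels, and the study's design text gives the doses and states that there were 2 independent experiments. That a replicate number marks an experiment is inferred. The analysis used edgeR 4.0.16 under R 4.3.3. The filter filterByExpr (minimum count 10, minimum total 15) left 19902 genes and removed 431, and TMM set the scaling of library sizes (factors 0.997 to 1.003). A quasi-likelihood fit of all 6 libraries had terms for arm and replicate number, which leaves 2 residual degrees of freedom, with a common biological coefficient of variation of 3.11%, and p-values were adjusted by Benjamini-Hochberg over all genes. The SE is the absolute log2 fold change divided by the root of the F statistic. Deviations of same-numbered libraries from their arm means correlated across genes at 0.177, 0.220 and 0.204 for the 3 pairs of arms, so the numbers were taken as pairs. The p-values measure only the spread of 2 experiments in 1 line. No exact permutation test of 2 against 2 libraries can pass 0.05, so none was run. The fitting step was checked on simulated counts that held no difference between replicates, so that check does not bear on the replicate term.

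The members and lists were chosen with earlier results of these data known, and lists were therefore only counted and summarised by medians. Genes were named by this rule: key genes marked in the lists; up to 4 called members per list or symbol family with the largest absolute change, a mean of at least 5 CPM and no overlap of the Degrader and DMSO libraries; and over all genes the 12 highest and 12 lowest that also span at least 1000 bp. This gave 132 of the 157 genes with values. The other 25 were chosen after their values were seen: CDC20, CDKN1A, DEPP1, EIF4EBP1, FGFR1, FGFR2, FGFR3, FOXO6, GADD45A, GADD45G, GAS5, INPP4B, JUND, MKI67, MTOR, OPTN, ORC3, ORC4, PCNA, PIK3C3, PTCH1, TFEB, TNFSF10, TOP2A and WDR45B. Promoters are those of RefSeq for GRCh38.p14, matched by name, chromosome and strand. Alternatives were no replicate term, only the arms compared, other scalings and filters, limma voom (limma 3.58.1), DESeq2 1.42.0, robust estimation, only isolated intervals, and each library left out.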

Additional observations from a re-analysis of the deposited data

How the results depend on the processing

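Of the 161 comparisons of named genes that were called, 161 kept their direction under every alternative that gave a value and 121 were called under all of them; 30 were not called without the replicate block and 20 not by DESeq2. All 161 were picked for being called in the main fit, and many of the genes were named for libraries without overlap. Their kept direction was therefore largely set by that choice and is no separate check. Counts depended on the model. Without the replicate block, 3039 genes were called for Degrader against DMSO (6114 with it), 712 for GDC0068 against DMSO (3540) and 53 between the compounds (2065), and by DESeq2 2907, 1108 and 428. Leaving out 1 library gave 3701 to 6920, 1631 to 3555 and 525 to 2192. The counts moved by more than 1.5 times without each DMSO or Degrader library (3701, 3886, 3841 and 4033 without DMSO 1, DMSO 2, Degrader 1 and Degrader 2), for GDC0068 without DMSO 1 or DMSO 2 (1631 and 1682), and between the compounds without GDC0068 1, Degrader 1 or Degrader 2 (1065, 525 and 1190). The cause was not tested. Of 110 counts of list members called higher or lower, 74 moved by more than 1.5 times without the replicate block, 68 by DESeq2, 36 with only isolated intervals, and 53, 39, 54 and 44 without DMSO 1, DMSO 2, Degrader 1 and Degrader 2. Mitotic genes called higher (21) were 9 without the replicate block, 12 by DESeq2 and 9 to 21 with 1 library left out, 9 of them without DMSO 1 or Degrader 1. Autophagy genes called higher (24) were 15 without the block. With only isolated intervals of at least 1000 bp, where fewer genes are tested, mitotic genes higher were 12, and genes lower were 21 of the translation factors, 23 of the nucleolus and 48 of the ribosomal proteins. TXNIP, which was not called, reversed sign with 1 library left out, ranging from -0.13 to 0.092. Scalings moved the median log2 fold change of all genes between -0.0044 and 0.0022.

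At 25371819 counts or more per library, every p-value still rests on 2 experiments. Short and weakly transcribed intervals are called less often, so a share called under the background in such a family does not show that its members were unchanged.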
